A study of Mus musculus with 3 samples.

Results

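Heat shock chaperones are proteins that bind unfolded or newly made proteins and help them fold, and 10 of their genes were followed here in RNA held on macrophage chromatin: Hspa1a, Hspa1b, Hspa8, Hsph1, Dnajb1, Dnaja1, Hsp90aa1, Hsp90ab1, Hspd1 and Hspe1. They were taken by gene symbol, 10 of 55536 annotated genes, with their 56 annotated isoforms. The genes, and the contrast of replicate 1 with the other libraries, were selected on levels of Hspa1a and Hspa1b already seen in these libraries. The values of that contrast are therefore given as a description, with no test. The macrophages had been grown from the bone marrow of C57BL/6J mice. A first treatment with Lipid A, a lipopolysaccharide fragment that is sensed by Toll-like receptor 4, lasted 12 h at 100 ng/ml and was followed by 12 h after washing. A second dose of 100 ng/ml then acted for 120 min before harvest. All 3 libraries come from this 1 condition, so no value below is a response to Lipid A. The labels give 3 biosamples under a single donor entry and do not say that they came from separate animals, so the spread between libraries may be technical.

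Heat shock factor 1 (HSF1) is the transcription factor that turns on chaperone genes when unfolded proteins accumulate. It binds heat shock elements, runs of the letters GAA and their complement TTC with a gap of 2 bases, as a trimer. HSP70 proteins bind and release clients with the help of J-domain partners and HSP110 exchange factors, HSP90 finishes the folding of kinases and receptors, and the HSP60 and HSP10 pair forms the folding chamber of mitochondria. Some of these genes are nearly silent until HSF1 is active, and others are transcribed strongly at all times. By textbook knowledge, Hspa1a, Hspa1b, Hsph1, Dnajb1 and Hsp90aa1 were set as the 5 heat-inducible members, and Hspa8, Hsp90ab1, Hspd1, Hspe1 and Dnaja1 as the 5 constitutive members, several of which also respond to heat. In the libraries, Hspa1a and Hspa1b were the only members more than 2-fold higher in replicate 1 than in both others, and the other 3 inducible members were not.

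Replicate 1 stands apart from the other libraries in ways that bear on every value below. It had 10293545 expected counts (read counts as the authors' program estimated them per gene), against 17820066 and 17548564 in replicates 2 and 3, and an RNA input of 1 µg against 250 ng and 500 ng. Its fragments were shorter, since the median of transcript length minus effective length was 149.7 bases against 256.8 and 251.3. All 10 macrophage markers were expressed in every library, with a summed level of 1558, 1514 and 1051 TPM in replicates 1, 2 and 3. Of 38 markers of 8 other cell types only Kdr reached 1 TPM in all libraries, 13 had no count, and their summed level was 10.1, 9.50 and 12.5 TPM. In bulk samples, fewer cells of a type and less RNA per cell cannot be told apart.

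The promoters of Hspa1a and Hspa1b are shown because these were the members that differed most between libraries and because their sequences are nearly the same. Both genes encode the stress-inducible HSP70, lie 9951 bases apart on the minus strand of chromosome 17, and have a single exon. Hspa1a (ENSMUSG00000091971.3) spans chr17:34969190-34972156 and Hspa1b (ENSMUSG00000090877.3) spans chr17:34956436-34959238, on mm10. The 250 bases before each start site, from RefSeq on GRCm38.p6, are identical at 247 of 250 positions. Capitals mark the letters GAANNTTC, which each window holds once, 104 to 97 bases before the start.
Hspa1a, chr17:34972157-34972406, minus strand: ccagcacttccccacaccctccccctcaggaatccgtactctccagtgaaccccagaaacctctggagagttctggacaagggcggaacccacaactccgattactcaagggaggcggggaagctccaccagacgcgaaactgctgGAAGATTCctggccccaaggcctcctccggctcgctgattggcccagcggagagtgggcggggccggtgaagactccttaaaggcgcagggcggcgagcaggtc
Hspa1b, chr17:34959239-34959488, minus strand: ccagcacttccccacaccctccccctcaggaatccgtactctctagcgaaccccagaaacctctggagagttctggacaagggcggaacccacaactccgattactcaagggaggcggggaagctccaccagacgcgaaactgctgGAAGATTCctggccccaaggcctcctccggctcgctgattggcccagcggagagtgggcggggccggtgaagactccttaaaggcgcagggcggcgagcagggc

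Of the 10 members, 7 had a RefSeq promoter window of 300 bases, 250 before to 50 after the start, in 12 windows. Hspa8, Hsp90aa1 and Hsp90ab1 had none in the table used here. The search took runs of 2 units (GAANNTTC and TTCNNGAA), 3 units (GAANNTTCNNGAA and TTCNNGAANNTTC) or 4 units, each of which covers both strands, and a longer run contains the shorter ones. Of 32851 windows of this length over all genes, 15.1% held at least 2 units, 0.603% at least 3 and 0.0244%, 8 windows, at least 4. A match was found for 6 of the 7 members, the pair among them. This counts genes, some with several windows, whereas the shares above count single windows, so these are unlike measures. The windows of Hspa1a and Hspa1b are nearly the same, and those of Hspd1 and Hspe1 hold the same site, so the 6 are not independent. Whether such runs bear on the difference between libraries was not tested. The sites below, with the units in capitals, are from members that differed by less than 1.5-fold between replicate 1 and the others. The pair's run of 2 units is the shortest searched for, so any site shown is at least as long, and nothing is read from that. Only exact letters were counted, so a longer run with a changed letter would be missed in any window, the pair's included.
Hspe1, chr1:55088053-55088082, plus strand, 4 units: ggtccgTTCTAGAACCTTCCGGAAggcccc
Hsph1, chr5:149636287-149636316, minus strand, 3 units: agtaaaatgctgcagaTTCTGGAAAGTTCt
Hsph1, chr5:149636351-149636380, minus strand, 2 units: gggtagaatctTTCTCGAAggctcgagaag
Dnaja1, chr4:40722333-40722362, plus strand, 2 units: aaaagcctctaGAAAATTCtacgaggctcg
The run of 4 units lies 89 to 72 bases before the Hspe1 start. The gene of HSP10, Hspe1, stands head to head with Hspd1, the gene of HSP60, and the same run, read on the other strand, is in a window of Hspd1. The run of 3 units in Hsph1 lies 37 to 49 bases after a start site. No run of 2 or more units was found in either window of Dnajb1, which says only that these letters are not there.

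All 10 members were transcribed in every library: each reached at least 1 TPM (a level scaled by transcript length and library total) in all 3, as did 42% of 22028 protein-coding genes. Hspa8, the gene of the constitutive HSP70 HSC70, was highest, with 142, 156 and 139 TPM in replicates 1, 2 and 3. Its mean of 146 ± 9.17 TPM (SD, n = 3) lay above 96.5% of expressed protein-coding genes. Next came Hsp90ab1, the constitutive cytosolic HSP90, at 62.9, 104 and 77.1 TPM, with a mean of 81.2 ± 20.7. Dnaja1, a J-domain partner of HSP70, stood at 66.0, 88.3 and 85.0 TPM, with a mean of 79.8 ± 12.1, and its range overlapped that of Hsp90ab1. These 3 constitutive genes lay above all other members in every library.

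The remaining members were lower. Hsp90aa1, the inducible cytosolic HSP90, had 12.4, 21.2 and 21.2 TPM (mean 18.2 ± 5.08), a range that reached neither Dnaja1 above it nor Hspd1 below it. Hspd1 had 8.83, 10.3 and 11.5 TPM (mean 10.2 ± 1.34). Hsph1, an HSP110 that exchanges nucleotide on HSP70, had 5.98, 9.23 and 11.1 TPM (mean 8.75 ± 2.57). The ranges of Hspd1 and Hsph1 overlapped. Hspe1 had 3.98, 6.75 and 7.14 TPM (mean 5.96 ± 1.72). Dnajb1, the HSP40 that works with inducible HSP70, was lowest by its mean, with 2.30, 2.97 and 2.96 TPM (mean 2.74 ± 0.38), above 10.4% of expressed protein-coding genes. Each of these genes was lowest in replicate 1.

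Hspa1a and Hspa1b had no fixed place in this order. Hspa1a had 14.5 TPM in replicate 1 and 1.64 and 1.65 TPM in replicates 2 and 3, so that its SD of 7.40 exceeded its mean of 5.92. Hspa1b had 14.4, 2.11 and 1.93 TPM, with a mean of 6.14 ± 7.14. In replicates 2 and 3 the pair was below the other 8 members, and in replicate 1 it was above Hsp90aa1, Hspd1, Hsph1, Hspe1 and Dnajb1. The 2 low libraries lay close together for both genes.

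**Figure D1:**
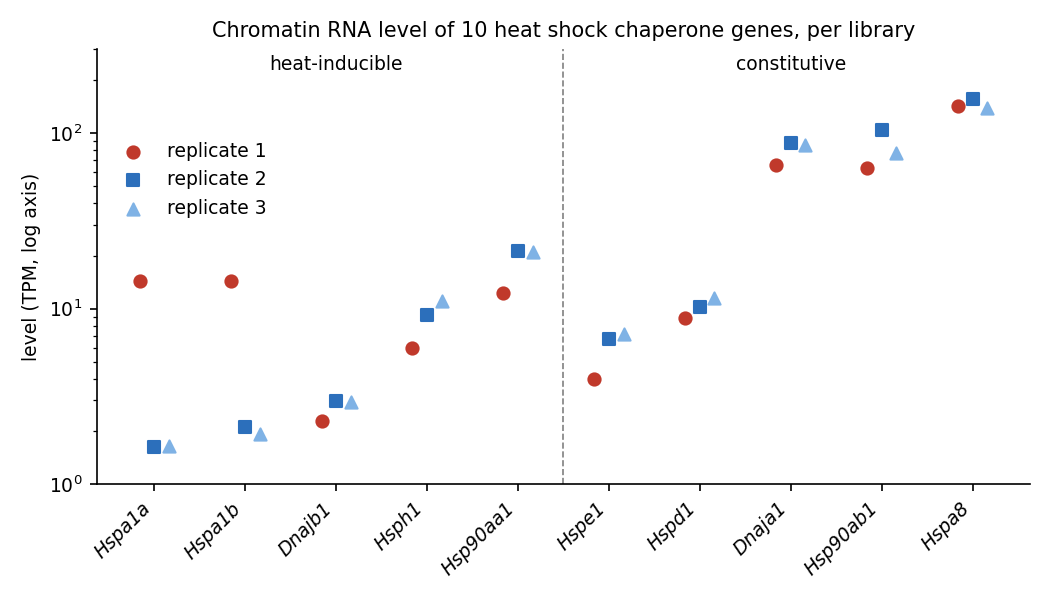
Level of each of the 10 genes in TPM on a log axis, 1 point per library, with heat-inducible members left of the dashed line and constitutive members right of it. Hspa1a and Hspa1b stand at 14.5 and 14.4 TPM in replicate 1 and between 1.64 and 2.11 TPM in replicates 2 and 3, while each of the other 8 genes differs by less than 2-fold between libraries.

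TPM falls for most genes of replicate 1, with a median log2 difference from the other libraries of -0.35 over 17110 genes with at least 10 counts, so libraries were compared on library-scaled counts (CPM, normalised by TMM), on which that median was -0.01. Hspa1a had 500 counts in replicate 1 (exact 95% Poisson interval 457 to 546), 69 in replicate 2 (53.7 to 87.3) and 77 in replicate 3 (60.8 to 96.2), or 48.2, 3.89 and 4.53 CPM. Replicate 1 was 12.4-fold above replicate 2 (exact 95% interval 9.63 to 16.2) and 10.6-fold above replicate 3 (8.35 to 13.7). Hspa1b had 468, 84 and 85 counts, or 45.1, 4.73 and 5.005 CPM, a ratio of 9.54 (7.55 to 12.2) to replicate 2 and 9.02 (7.15 to 11.5) to replicate 3. Replicates 2 and 3 did not differ beyond counting error, with a ratio of 0.857 (0.610 to 1.20) for Hspa1a and 0.945 (0.691 to 1.29) for Hspa1b. All intervals cover counting error only, not the spread between cultures.

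A read assigned to Hspa1a can come from Hspa1b. Of the stretches of 31 bases in the Hspa1a transcript, 63.8% also occur in that of Hspa1b, and 67.5% of those of Hspa1b occur in Hspa1a. The authors' program gave a posterior SD of 15.9 counts for Hspa1a and 15.8 for Hspa1b in replicate 1, and of 4.80 to 5.34 counts in the others. The pair was therefore also summed, which removes this doubt. The sum was 968, 153 and 162 counts, or 93.4, 8.62 and 9.54 CPM, and replicate 1 was 10.8-fold (9.13 to 12.9) above replicate 2 and 9.79-fold (8.28 to 11.6) above replicate 3. The pair made up 13.5% of all counts on the 10 members in replicate 1, against 1.48% and 1.51% in replicates 2 and 3. A gene overlapping Hspa1a on the opposite strand, Gm20481, had no count in any library.

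The other heat-inducible members differed by less than 1.5-fold between replicate 1 and each other library. Hsph1 had 14.8, 16.1 and 19.1 CPM in replicates 1, 2 and 3, a log2 contrast of -0.24 (replicate 1 minus the mean of the others). Dnajb1 had 7.72, 7.04 and 8.18 CPM and a contrast of 0.02, with replicate 1 between the other libraries. Hsp90aa1 had 34.3, 28.7 and 46.2 CPM and a contrast of -0.08. For Hsp90aa1 the distance between replicates 2 and 3 was larger, with a ratio of 0.622 (0.555 to 0.696), than that of replicate 1 from either of them.

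The constitutive members also differed by less than 1.5-fold on the alignment-based CPM scale. Hspa8 had 265, 231 and 237 CPM, a ratio of 1.15 (1.10 to 1.21) to replicate 2 and 1.12 (1.07 to 1.18) to replicate 3, and its contrast of 0.18 was the highest after the pair. Hsp90ab1 had 97.7, 102.3 and 101.04 CPM and a contrast of -0.06. Dnaja1 had 155, 167 and 182 CPM and a contrast of -0.17. Hspd1 had 17.6, 17.8 and 23.1 CPM (contrast -0.20), and its partner Hspe1, with 37, 68 and 81 counts, had 3.57, 3.83 and 4.77 CPM (contrast -0.23). The ratios of replicate 1 to replicate 2 were within counting error, at 0.986 (0.817 to 1.19) for Hspd1 and 0.932 (0.607 to 1.41) for Hspe1. The sign of these small contrasts is not fixed. On the TPM scale, read-based or without 1 of the other replicates it changed for Dnajb1, Hsp90aa1, Hspa8, Hsp90ab1 and Dnaja1. On the TPM scale the median over all genes was itself -0.35.

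Counted at 2-fold against both other libraries, 2 of the 10 members were higher in replicate 1, namely Hspa1a and Hspa1b, and none was lower. Of all 17110 genes with at least 10 counts, 7.94% were that much higher and 5.73% that much lower. That share higher was 13.2% without replicate 2, 12.5% without replicate 3, 3.73% on the TPM scale and 2.67% over genes of at least 5 CPM. Among 8084 protein-coding genes of at least 5 CPM on average, a group that holds 9 of the members, 1.51% were that much higher. Hspa1a ranked 3 and Hspa1b ranked 4 of those 8084 by contrast, and since the pair chose the comparison, nothing is read from this. No member differed by 2-fold between replicates 2 and 3, where 10.3% of the 17110 genes and 1.35% of the 8084 did.

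As groups, the inducible members had a median contrast of 0.02 and the constitutive members of -0.17, a difference of 0.19 on the log2 scale, which was 0.040 by TPM and 0.065 read-based. With Dnaja1, Hspa8, Hspd1 and Hspe1 counted as inducible, it was -0.028. The means were 1.23 and -0.09, and the gap between median and mean is the pair: without it the 3 other inducible members had a median of -0.08. Within each library, the inducible members had the lower median level, though single members crossed: Hsp90aa1 lay above Hspd1 and Hspe1 in every library. The inducible median of log2(TPM + 0.1) was 3.64, 1.62 and 1.61 in replicates 1, 2 and 3, against 5.98, 6.47 and 6.27 for the constitutive members. The difference was -2.34 in replicate 1, where Hspa1a and Hspa1b lift the median, and -4.85 and -4.66 in the others. On average it was -3.95, and -1.93 with Dnaja1 counted as inducible.

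**Figure D2:**
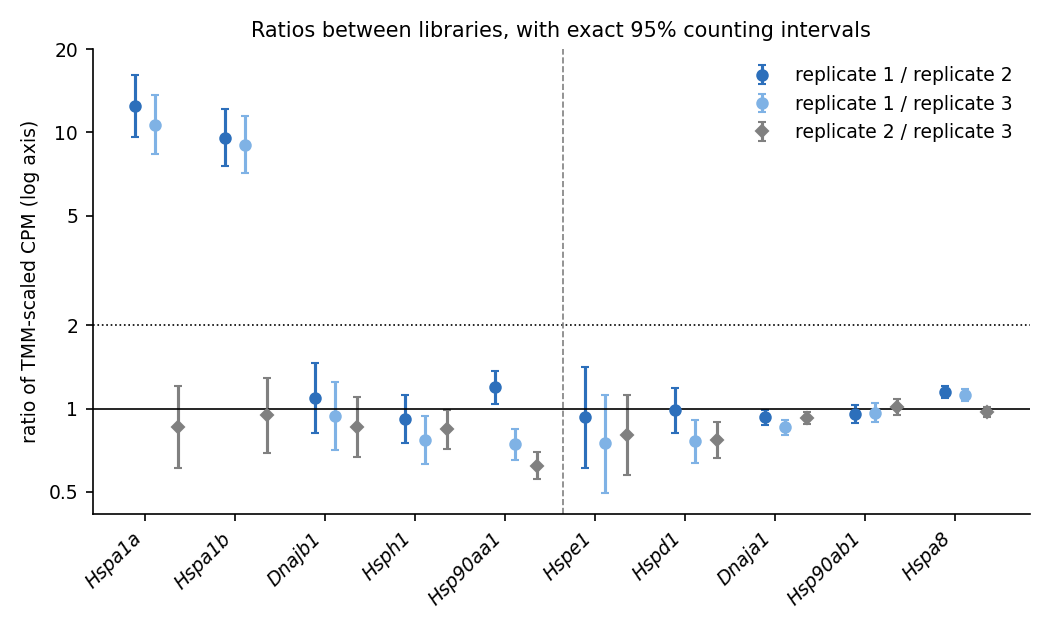
Ratio of TMM-scaled CPM between libraries for each gene on a log axis, with exact 95% counting intervals; the dotted line is 2-fold and the dashed line parts inducible from constitutive members. Hspa1a and Hspa1b lie between 9.02 and 12.4 for replicate 1 over the others, and all other ratios lie between 0.622 and 1.20.

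The second deposited quantification, made from the reads without a genome alignment and called read-based here, gave the same picture for the pair. Hspa1a had 675, 77 and 82 read-based counts, 16.3-fold and 14.2-fold higher in replicate 1 by CPM. Hspa1b had 609, 100 and 96, 11.3-fold and 11.0-fold higher. For Hspa8 the read-based CPM of 220, 149 and 155 put replicate 1 at 1.47-fold and 1.42-fold. Read-based, 2 of the 10 members, the pair, were past 2-fold higher, beside 7.08% of 27198 genes with at least 10 read-based counts. The pair chose the contrast, so nothing is read from this count. Both tables derive from the same reads and are not replicates of each other.

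Hspa8 differed between libraries in the isoforms its reads were given to. Hspa8-201 and Hspa8-202 are both protein-coding with 9 exons, and their annotated starts are at 40800984 and 40801302 on chromosome 9. Hspa8-201 took 24.5 counts in replicate 1 against 690 and 684 in replicates 2 and 3, which is 0.892%, 16.9% and 16.99% of the gene's counts. Hspa8-202 took 48.9%, 25.8% and 27.1%. The read-based shares had the same order, with 0.335%, 23.4% and 24.8% for Hspa8-201 and 43.0%, 16.1% and 16.9% for Hspa8-202. In both quantifications few reads of replicate 1 were assigned to the longer isoform. These shares are estimates from reads that the isoforms largely have in common.

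The share of reads assigned to intron-retaining isoforms differed widely between members. Isoforms annotated with a retained intron held 49.4%, 54.8% and 53.4% of Hspa8 counts, led by Hspa8-208, and 75.0%, 54.1% and 65.4% of Hsph1 counts, led by Hsph1-204. For Hspe1 the share was 80.4%, 74.3% and 77.7%, but read-based it was 31.2%, 33.8% and 43.1%, so this level depends on the quantification. Hsp90ab1 had 26.9%, 27.6% and 21.4% and Hsp90aa1 7.72%, 10.7% and 8.45%. Over 5967 expressed protein-coding genes with such an isoform the median was 30.9%, 30.97% and 31.04%. Hsp90ab1 and Hsp90aa1 thus lay below that median, and Hspa8 and Hsph1 above it. Hspa1a, Hspa1b, Dnajb1, Hspd1 and Dnaja1 have no isoform of that class. For Dnaja1, noncoding processed transcripts, mostly Dnaja1-204, held 66.8%, 66.9% and 71.0% of its counts. Of the 2 genes that differed most, Hspa1a and Hspa1b, neither has an intron.

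Hspa8 also carries small RNA genes in its introns. Snord14c (chr9:40803583-40803668), Snord14d (chr9:40803995-40804080) and Snord14e (chr9:40804748-40804837) encode box C/D small nucleolar RNAs (snoRNAs), which guide methylation of ribosomal RNA and are cut from the introns of their host. The alignment-based table lists all 3 at 0, as it does 1349 of 1507 snoRNA genes. In the read-based table Snord14c had 548, 68 and 60 counts, Snord14d had 685, 80 and 98, and Snord14e had 94, 0 and 2, where a count of 0 allows up to 3. By read-based CPM these were 31.1, 2.07 and 1.97 for Snord14c and 38.8, 2.44 and 3.21 for Snord14d, and all 3 were past 2-fold in replicate 1. Of 368 snoRNA genes with at least 10 read-based counts, 44% were past it, against 7.08% of all 27198 genes, and snoRNAs took 0.720%, 0.153% and 0.171% of read-based counts. The part that shorter fragments in replicate 1 play in the snoRNA counts was not tested.

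**Figure D3:**
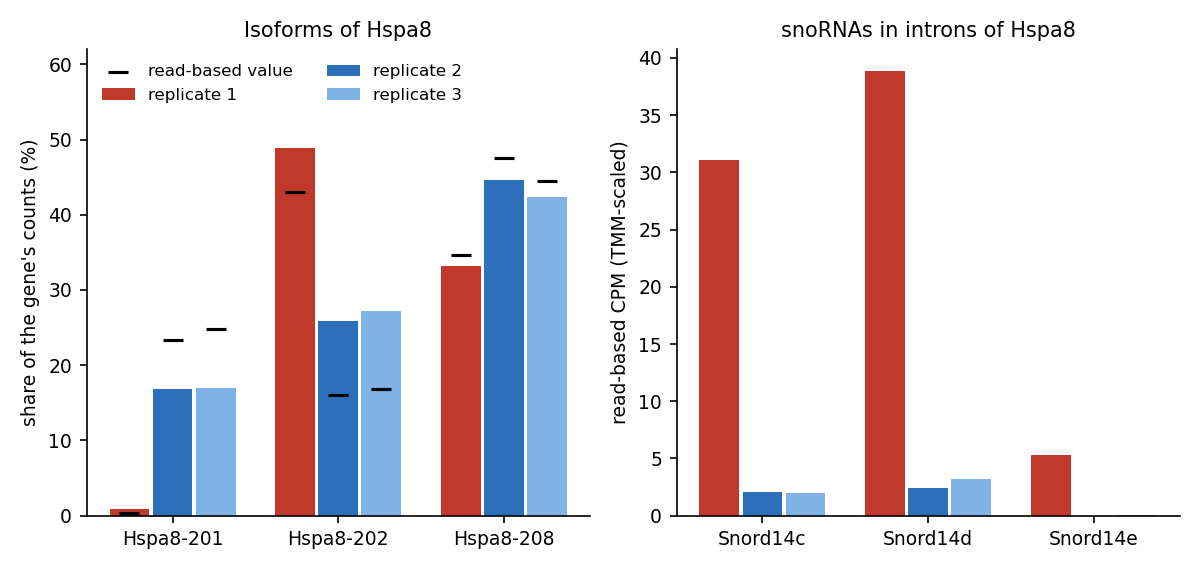
Left, share of Hspa8 counts given to 3 isoforms in each library (bars, alignment-based; dashes, read-based). Right, read-based CPM of the 3 snoRNAs in Hspa8 introns; replicate 1 has 0.892% for Hspa8-201 against 16.9% and 16.99%, and 31.1 CPM for Snord14c against 2.07 and 1.97.

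Within 50000 bases on either side of the pair on chromosome 17, 7 of 13 other genes had at least 10 counts in all. Of these, 1 was past 2-fold higher (Hspa1l) and 1 past 2-fold lower (Gm10501), both at low counts, beside 7.94% and 5.73% of all 17110 genes. Contrasts of the 7 ran from -0.69 (Vars, a tRNA synthetase gene) to 0.49 (Hspa1l). Neu1, a lysosomal sialidase gene, had 40.2, 52.8 and 53.0 CPM. Hspa1l, an HSP70 gene mainly of testis that begins 546 bases from Hspa1a on the other strand, had 5, 3 and 4 counts; its ratio to replicate 2 was 2.85 with an interval of 0.555 to 18.4, which includes both 1 and the ratios of the pair. Gm10501, a noncoding gene antisense to it, had 3, 11 and 15 counts, a ratio of 0.467 (0.0837 to 1.77) to replicate 2 and 0.328 (0.0608 to 1.16) to replicate 3.

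Lists of related genes put the pair among the rest of the stress machinery, and they too were drawn up with earlier results known. Of 10 regulators of the heat shock response, all with at least 10 counts, none was past 2-fold either way. Hsf1, the gene of the factor itself, had 47.3, 54.3 and 53.9 CPM and a contrast of -0.19. The list had a median contrast of -0.07, against -0.01 over all genes with at least 10 counts.

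The wider chaperone network was covered by 5 further lists. None of 20 J-domain genes, 22 cochaperones and exchange factors, 14 TRiC and prefoldin subunits, 9 mitochondrial chaperones and proteases or 2 other HSP90 genes was past 2-fold in either direction. Their median contrasts were 0.06, -0.17, -0.35, -0.14 and -0.27. Contrasts of single genes ran, in the same order, from -0.66 to 0.88, -0.82 to 0.82 and -0.54 to 0.84 in the first lists. They ran from -0.57 to 0.39 in the mitochondrial list and from -0.39 to -0.16 in the HSP90 list. The highest of each by TPM were Dnajc7 (120, 113 and 97.0 CPM), Bag6 (78.0, 78.6 and 66.0 CPM), Cct8, a TRiC subunit (34.2, 44.5 and 46.1 CPM), Hspa9, the mitochondrial HSP70 (38.7, 43.0 and 42.6 CPM), and Hsp90b1, the HSP90 of the endoplasmic reticulum (142, 157 and 159 CPM). Across all chaperone, cochaperone and heat shock factor lists, 3 of 87 genes were higher, 3.45%, and 0 were lower, beside 7.94% and 5.73% of all 17110 genes and 1.51% higher among the 8084 more abundant ones.

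Those 3 were low. Hspa2, an HSP70 gene known best from testis, had 33, 19 and 13 counts, a ratio of 2.97 (1.64 to 5.54) to replicate 2 and 4.16 (2.13 to 8.61) to replicate 3. Hspb1, the small heat shock protein HSP27, had 9, 2 and 7 counts, a ratio of 7.71 (1.595 to 73.3) to replicate 2 and 2.11 (0.698 to 6.66) to replicate 3. Hspa1l, described above, was the other. Only for Hspa2 did both intervals lie above 1.

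Among 19 other known HSF1 targets with at least 10 counts, 3 were higher in replicate 1 and 1 was lower, with a median contrast of 0.03. Of all 17110 genes, 7.94% were that much higher and 5.73% that much lower, and of the 8084 more abundant ones 1.51% were higher. Ubb, a ubiquitin gene, had 55.1, 17.5 and 19.8 CPM, 3.15-fold (2.74 to 3.63) and 2.78-fold (2.42 to 3.19) higher. Hspb1, described above, was also among them. Serpinh1, a collagen chaperone gene, had 0 counts in replicate 1, where a count of 0 allows up to 3, and 5 and 8 counts in the others.

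Immediate early genes, which are transcribed within minutes of many stimuli, had the highest median contrast of the 11 lists, 0.44. Of 17 with at least 10 counts, 4 were past 2-fold higher and 0 lower, beside 7.94% and 5.73% of all genes. Zfp36, whose product destabilises cytokine messages, had 239, 82.8 and 92.8 CPM and Dusp1, a phosphatase of MAP kinases, had 88.7, 27.2 and 32.1 CPM. Klf4 (31, 14 and 12 counts) and Egr3 (17, 3 and 10 counts, a ratio of 9.70 with an interval of 2.81 to 51.7 to replicate 2) were low, and at a mean of at least 5 CPM only Zfp36 and Dusp1 of the 4 were counted. In the unfolded protein response of the endoplasmic reticulum, 1 of 17 genes was higher, Ddit3, which encodes CHOP, with 39.5, 16.0 and 14.4 CPM; by TPM, at 44.5, 27.1 and 22.1, it was not past 2-fold against replicate 2. The list's median contrast was 0.13. The highest contrast in these lists was 1.57, for Dusp1, against 3.37 and 3.09 for Hspa1a and Hspa1b, which chose the contrast.

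**Figure D4:**
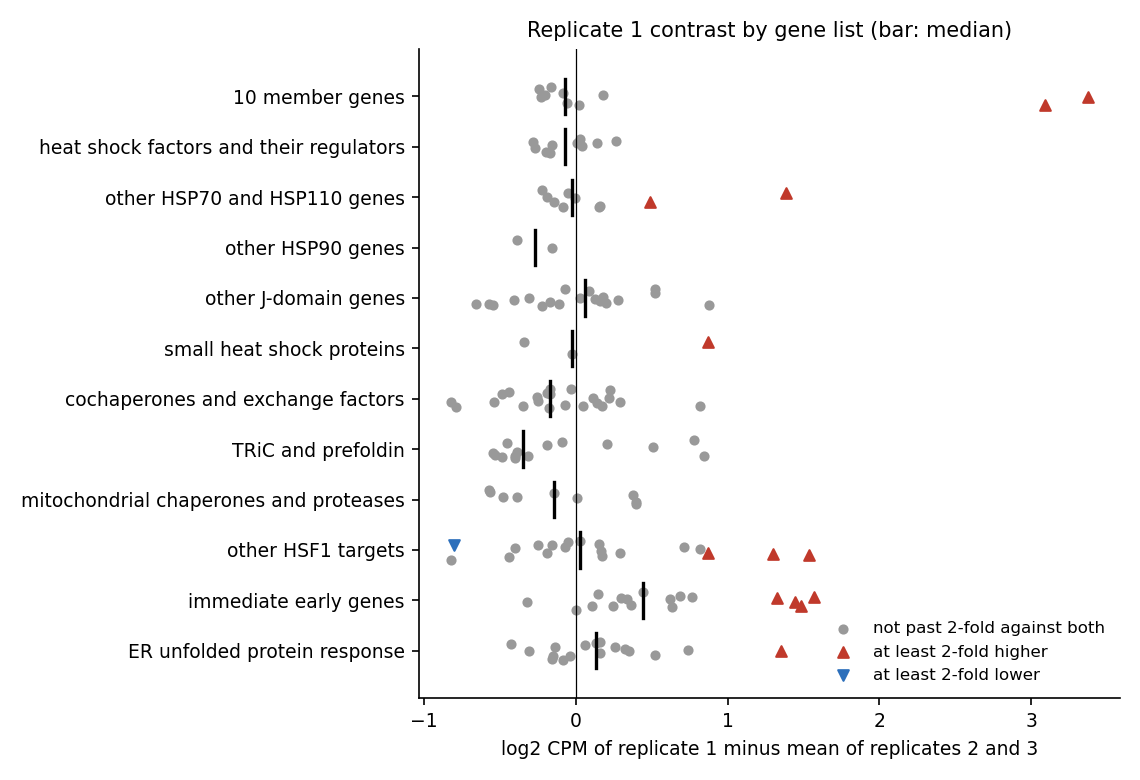
Log2 CPM of replicate 1 minus the mean of replicates 2 and 3 for the 10 member genes and for 11 related lists, 1 point per gene with at least 10 counts; triangles are past 2-fold against both other libraries and the black bar is the median. Hspa1a (3.37) and Hspa1b (3.09) chose the contrast, so nothing is read from their distance to the other points, of which the highest is 1.57. The immediate early list has the highest median, 0.44.

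The 10 protein-coding genes whose 3 library values lay nearest to those of the summed pair were Bbs10, 9130230L23Rik, Ebpl, Arfgef3, Atp5k, Cebpb, Sh3bgrl3, Gm49339, Aph1c and Best1. Likeness is the Euclidean distance of centred log2 CPM over 3 libraries, computed for 8082 genes of at least 5 CPM. None stands in the chaperone lists, but those hold only 87 genes with at least 10 counts beside 8082 candidates, so nothing is read from this. The nearest was Bbs10, a chaperonin-like gene of Bardet-Biedl syndrome, with 54.7, 5.63 and 7.77 CPM at a distance of 0.347, and Cebpb, a single-exon transcription factor gene, had 44.8, 10.5 and 11.9 CPM at 1.10. The 8 other members lay at 2.54 (Hspa8) to 2.89 (Hsph1). For Ebpl the read-based contrast was -0.08 against 2.12 alignment-based, and it fell from 3.63 to 1.52 for 9130230L23Rik, from 1.78 to 0.75 for Best1 and from 1.81 to 1.02 for Aph1c, so the order among the 10 depends on the quantification.

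Gene structure and base composition moved with the contrast over all genes. The median contrast of the 8084 protein-coding genes ran from -0.35 at a transcript GC content of at most 40% to 0.15 at 55 to 60%. It was 0.10 above 60%. By longest transcript, the median ran from 0.47 for genes of at most 1000 bases to -0.16 above 5000 bases. Hspa1a and Hspa1b have a GC content of 58.9% and 58.1%, and the other members of 41.2% to 52.7%. The 97 other single-exon genes had a median contrast of -0.16, and 2 of them, 2.06%, were past 2-fold higher. In the GC bin that holds the pair, 2.77% of 1334 genes were past 2-fold higher. The length bin that holds the pair, over 2000 to 3000 bases, had a median contrast of 0.01, with 1.59% of 1637 genes past 2-fold higher. The part of GC content, fragment length, RNA input and handling of the culture in the level of Hspa1a and Hspa1b in replicate 1 was not tested, and with 1 library these cannot be told apart.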

How the data were processed

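Chromatin-associated total RNA, depleted of ribosomal RNA, was measured in 3 libraries of 1 condition. For each, the authors deposited gene and transcript tables of expected (estimated) counts and TPM from a transcriptome alignment, and a transcript table of estimated counts and TPM made from the reads, per the file headers and the deposited notes (mm10, GENCODE M21). Effective lengths and posterior SDs are values the authors deposited. The sources used here do not give program versions or say whether counting used strand. Whether reads from the 112 bases that Hspd1 and Hspe1 share on opposite strands were told apart is therefore not known.

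Rows naming no annotated gene held 1.87%, 0.390% and 0.519% of counts in replicates 1, 2 and 3 and were left out. Expected counts were rounded and scaled by TMM (edgeR 4.0.16) over genes with at least 10 counts. Contrasts are log2(CPM + 0.5) of replicate 1 minus the mean of replicates 2 and 3. Ratio intervals are exact binomial and count intervals exact Poisson, at 95%. Read-based counts were summed per gene. A gene past 2-fold had a CPM ratio of at least 2 to each other library. No test was run, since 1 library stands against 2 of the same condition. The code was tested on simulated data. Figures used matplotlib 3.10.9.

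The members and lists were chosen with earlier results of these data known. Named genes are the 10 members, per list the genes past 2-fold (at most 4, by size of contrast) or else the highest by TPM, the 10 nearest profiles, and genes inside or opposite a member; 1 gene that this rule picks is not reported here. Neu1 and Vars were named after their values were seen, as were Gm10501 and the GC and length bins. Alternatives were DESeq2 (1.42.0) size factors, TPM, read-based values, other folds, prior counts, pseudocounts, filters and groupings, and leaving out replicates.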

Additional observations from a re-analysis of the deposited data

How the results depend on the processing

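The count of 2 members past 2-fold held under DESeq2 size factors, TPM, read-based counts, 1.5-fold and 3-fold. It also held without replicate 2 or 3, and with replicates 2 and 3 thinned to the depth of replicate 1 (thinning was added after seeing the data). With Hspa1a and Hspa1b summed as 1 gene it was 1. The pair chose the contrast, at CPM ratios of 9.02 to 12.4, so its part in this count could hardly change and nothing is read from that. The share of all genes that much higher, 7.94%, was 15.3% at 1.5-fold, 3.46% at 3-fold and 3.73% by TPM. It was 13.2% without replicate 2 and 12.5% without replicate 3. The inducible minus constitutive contrast of 0.19 reversed to -0.028 with Dnaja1, Hspa8, Hspd1 and Hspe1 counted as inducible, which leaves 1 constitutive gene, and was 0.040 by TPM, 0.065 read-based, 0.15 without replicate 2 and 0.32 without replicate 3. The inducible minus constitutive level, -3.95 on average, was -1.93 with Dnaja1 counted as inducible and ranged from -4.75 to -3.50 when replicates were left out. At 5 TPM, 6 members in place of 10 passed in all libraries. Pathway genes past 2-fold higher were 10 of 120, or 8.33%, near the 7.94% of all genes. They numbered 6 by TPM and 5 at a mean of at least 5 CPM, where the share of all genes was 3.73% and 2.67%. Immediate early genes at a mean of at least 5 CPM numbered 2 in place of 4. These settings for the lists were added after seeing the data. Contrasts of single members reversed for Dnajb1 (-0.353 by TPM, and from -0.080 to 0.124 when replicate 2 or 3 was left out), Hsp90aa1 (0.015 read-based, and from -0.423 to 0.253 on leaving out replicate 2 or 3), Hspa8 (-0.053 by TPM), Hsp90ab1 (0.149 read-based) and Dnaja1 (0.041 read-based); the cause was not tested. By TPM the median contrast over all genes with at least 10 counts was itself -0.354, beside -0.353 for Dnajb1 and -0.053 for Hspa8. Of 60 values of single-member contrasts under these settings, 50 moved by less than 1 SD between libraries. That SD is over all 3 libraries, replicate 1 included. For Hspa1a and Hspa1b it is 1.95 and 1.78 and comes from the contrast itself, so nothing is read from it for them. Leaving out replicate 1 gives no contrast. No paired analysis was possible because all libraries belong to 1 group. Depth limits the statements on Hspe1, Hspa1l and Hspb1.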
